A study of Mus musculus with 8 samples.

Results

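Cholesterol is built from acetyl-CoA along a chain of enzymes. The early steps make mevalonate and turn it into isoprenoid diphosphates, farnesyl diphosphate stands at the branch between sterols and other isoprenoids, and the late steps close squalene into lanosterol and trim it to cholesterol. In animal cells the genes of these enzymes are switched on together by the transcription factor SREBP-2, encoded by Srebf2, when membranes are short of sterol, and T cells are known to raise this pathway as they grow after activation. The genes described here are 8 enzymes of the chain, named Hmgcs1, Mvd, Idi1, Fdps, Fdft1, Sqle, Lss and Cyp51 in the order of their steps. They were taken by gene name from the deposited non-normalized table, which holds 18138 names, and 6 of the 8 were found, spelled there as MVD, IDI1, FDPS, SQLE, LSS and CYP51. The expression of Hmgcs1 and Fdft1 was not analysed here. In the RefSeq gene table of GRCm38.p6 the genes lie apart, Mvd at chr8:122433596-122443422, Idi1 at chr13:8885606-8892396, Fdps at chr3:89093588-89101967, Sqle at chr15:59315092-59331193, Lss at chr10:76531565-76557139 and Cyp51 at chr5:4080674-4104697. The 8 were chosen by their known steps and selected on array intensities that had already shown the difference between the groups, so for them that difference is given as a description without a test.

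The cells were mouse CD8+ OT-1 cells, which carry a transgenic receptor for SIINFEKL, a peptide of ovalbumin, on H2-Kb. They had been kept for 24 h, at a ratio given as 5:1, with LPS-matured cells carrying that peptide, and the stimulators were B cells activated through CD40 (group cB) or dendritic cells (group DC). T cells positive for CD8 and CD69 were then sorted and their RNA was hybridized to Illumina beadchips (mouse-ref8-v2.0), with 4 arrays in each group. No unstimulated T cells and no ages are among the groups given, both groups share the peptide, the LPS and the 24 h, and the comparison asks how the kind of stimulator bears on the T cell.

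The mean intensity of an array lay between 602 and 824, and between 38.3% and 40.8% of gene names were detected (detection p below 0.05). Of 7167 genes detected on at least 4 of the 8 arrays, 4397 (61.4%) passed an adjusted p of 0.05 in limma's moderated test, 2134 (29.8%) higher in cB and 2263 (31.6%) higher in DC. Of the 11 T cell markers found, 10 were tested. Among them Cd3d, Cd3e and Cd8b1 were detected on all 8 arrays, while Cd8a was detected on none. Among 12 B cell markers found, Pax5, Cd22 and Cr2 were detected on no array and Ms4a1 on 1 cB array, whereas Cd79b (at least 3.63-fold higher) and Fcmr (at least 4.73-fold) were detected on the 4 cB arrays and on no DC array. Cd79b and Fcmr were tested only through their cB arrays, so the filter set their direction. Pou2af1, of the same list, was detected on all 8 arrays and was higher in DC (-1.27, limma adjusted p = 7.2e-05). The summed intensity of the B cell list ran from 2495 to 2867 on cB arrays and from 2494 to 2897 on DC arrays. Of 15 dendritic and myeloid markers, 8 were detected on no array, among them Itgax and Flt3. Of the 5 tested, 4 were higher in DC and 1 in cB, where 31.6% of all tested genes were higher in DC. Zbtb46 and Cd68, detected on all 8 arrays, were higher in DC (-2.18 and -0.99, limma adjusted p = 1.6e-06 and 5.4e-04). Cd14 (at least 4.14-fold higher) and Il1b (at least 3.40-fold) were detected on the 4 DC arrays and on no cB array, and the summed list ran from 3281 to 3496 on DC arrays and from 2436 to 2898 on cB arrays. Cd14 and Il1b were tested only through their DC arrays, so the filter set their direction. Fscn1, of the same list, was higher in cB (1.48, limma adjusted p = 1.7e-04). The part of such other cells in the values that follow was not tested, and in sorted bulk RNA fewer cells of a type and less RNA per cell cannot be told apart.

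The enzymes were higher in T cells stimulated by B cells at 5 of the 6 measured steps, and the sixth, Idi1, lay at the edge of detection in both groups. Fdps differed most, followed by Cyp51, Sqle, Lss and Mvd. The groups did not overlap for these 5 genes, where 56.8% of all tested genes had groups apart and 27.7% had cB above DC; the genes were picked with this contrast in view, so nothing is read from that count. The summed intensity of the 6 genes was 11341 to 17879 on cB arrays and 1810 to 2089 on DC arrays. All log2 differences below are cB minus DC after background correction and quantile normalization, each with its standard error (SE) from the model, n = 4 for either group. Because a background shared by all beads compresses the differences of dim genes, the value in the authors' deposited gene-level table, computed there as the difference between group means, stands beside that of each of the 6 enzymes.

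**Figure D1:**
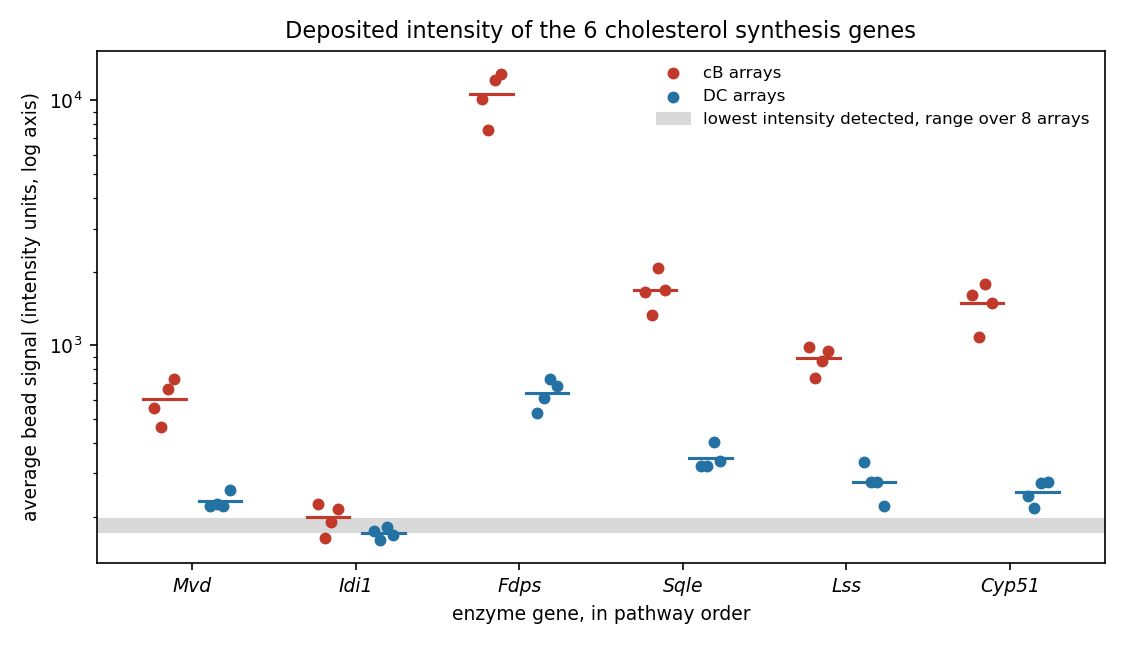
Average bead signal as deposited (log axis) of the 6 measured enzyme genes in pathway order, with a point for each of the 4 cB and 4 DC arrays, a line at the group mean, and a grey band for the lowest intensity counted as detected (173 to 195 over the 8 arrays). The cB points lie above the DC points in every gene except Idi1, whose points sit in or beside the band, and Fdps is brightest in cB.

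Mvd encodes mevalonate diphosphate decarboxylase, which makes isopentenyl diphosphate at the end of the mevalonate steps. Its deposited intensity was 557, 464, 665 and 728 on cB replicates 1 to 4 and 222, 225, 222 and 256 on DC replicates 1 to 4. Every cB array lay above every DC array, and the DC arrays were close to the lowest intensity counted as detected, which was 173 to 195. The log2 difference was 2.20 ± 0.18 (SE, n = 4 per group), and 1.28 in the authors' deposited table.

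Idi1 encodes isopentenyl diphosphate isomerase, which turns that product into the allylic partner needed for chain growth. Its intensity was 225, 164, 189 and 216 on the cB arrays and 175, 161, 182 and 169 on the DC arrays. Only cB replicates 1 and 4 counted as detected, no DC array did, and the groups overlapped, so Idi1 was not among the tested genes. Its log2 difference of 0.49 ± 0.19 (SE from the fit without a detection filter) was 0.16 in the authors' deposited table and 0.04 with the background estimated from all genes. At this signal the size of any difference could not be measured.

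Fdps encodes farnesyl diphosphate synthase, whose product feeds both the sterol steps and the farnesyl, geranylgeranyl, dolichol and ubiquinone branches. The cB arrays gave 10164, 7560, 12111 and 12813 intensity units and the DC arrays 528, 608, 731 and 680. The lowest cB array was thus far above the highest DC array, and Fdps was well above the detection edge in both groups. The log2 difference was 4.25 ± 0.12, a 19.1-fold difference, and 3.91 in the authors' deposited table. By that size it stood at rank 39 among the tested genes higher in cB.

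Sqle encodes squalene epoxidase, which adds oxygen to squalene and is known as a slow step of the pathway. Its intensity was 1659, 1332, 2078 and 1684 on the cB arrays and 323, 322, 405 and 336 on the DC arrays. The replicates were close together in both groups once normalized, with a pooled SD of 0.076 on the log2 scale where the median tested gene had 0.20. The log2 difference was 2.77 ± 0.09, and 2.17 in the authors' deposited table.

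Lss encodes lanosterol synthase, which closes the rings. Its intensity was 981, 739, 867 and 951 on the cB arrays and 333, 278, 276 and 221 on the DC arrays. The groups were apart, but the DC arrays were spread widely, with an SD of 0.55 in normalized log2 level where the median tested gene had 0.16 in DC. The log2 difference was 2.37 ± 0.25, and 1.59 in the authors' deposited table.

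Cyp51 encodes the cytochrome P450 that removes a methyl group from lanosterol. It gave 1606, 1082, 1787 and 1486 intensity units on the cB arrays and 242, 216, 275 and 278 on the DC arrays. All cB arrays exceeded all DC arrays, and the DC signal was low. The log2 difference was 3.46 ± 0.15, a 10.97-fold difference, and 2.44 in the authors' deposited table, a 5.43-fold difference.

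The arrays did not move as a block within a group. In the deposited intensities cB replicate 2 was the lowest cB array for all 6 genes, and it also had the lowest median intensity over all genes of the cB arrays, 161. After quantile normalization that array was lowest among the cB arrays for Idi1 and Fdps, by 0.44 and 0.17 below their group means on the log2 scale. The lowest cB array was then replicate 1 for Mvd, replicate 3 for Lss and replicate 4 for Sqle and Cyp51. Among the DC arrays, replicate 1 was highest for Lss, by 0.63 above its group mean, and lowest for Fdps, at -0.24.

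Along the chain the differences went up and down and did not follow the order of the steps. Idi1 was left out of this order because it was not above background in DC. From Mvd to Fdps the log2 difference was larger by 2.05 ± 0.17 (SE of the contrast between the genes over the 8 arrays), and from Fdps to Sqle it was smaller by 1.49 ± 0.13. Sqle and Lss were apart by 0.40 ± 0.32, and by 0.58 ± 0.18 in the authors' deposited table, and Cyp51 exceeded Lss by 1.09 ± 0.41. Ordered by size, Fdps exceeded Cyp51 by 0.80 ± 0.18 and Cyp51 exceeded Sqle by 0.69 ± 0.17. Lss and Mvd were apart by 0.17 ± 0.40, and by 0.31 ± 0.21 in the authors' deposited table, so these neighbours did not differ beyond their spread. These are contrasts between changes, not between levels, and each depends on how the background of a dim gene is treated: with the background estimated from all genes, Sqle (2.44) and Cyp51 (2.41) were close and Mvd was at 0.82. Fdps was first under each of the 4 treatments of the background.

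**Figure D2:**
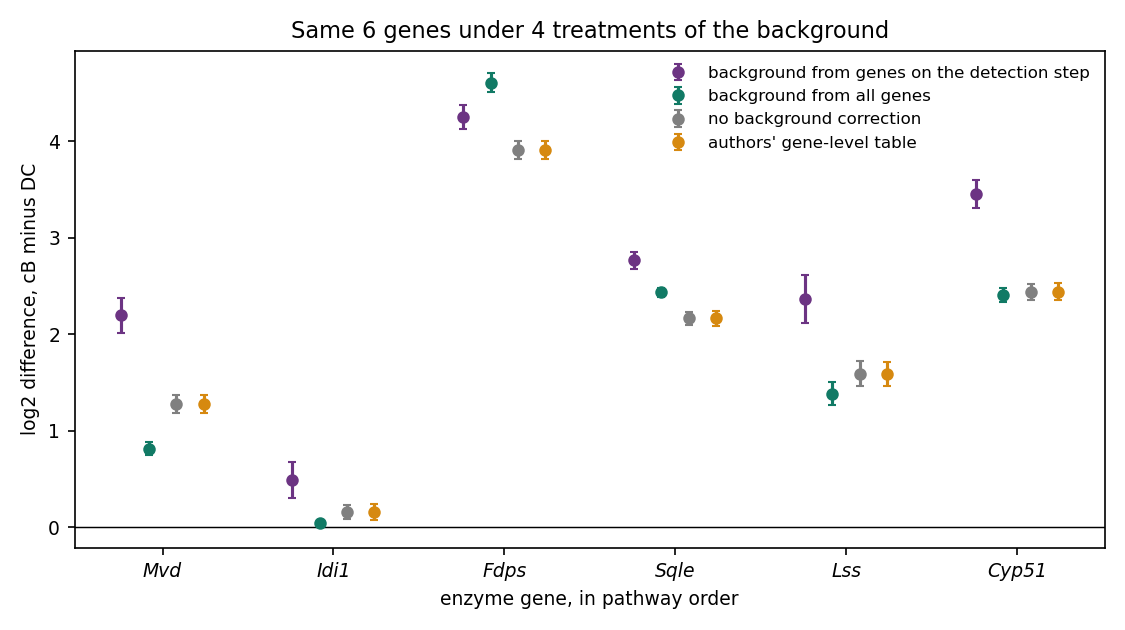
Log2 difference, cB minus DC (points, with the SE of each fit as bars), of the 6 enzyme genes in pathway order under 4 treatments of the background. Fdps lies between 3.91 and 4.61 throughout, whereas Mvd runs from 0.82 to 2.20 and Cyp51 from 2.41 to 3.46; no correction and the authors' table give the same points.

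The promoters show the sequence before the start sites of the 4 measured enzymes listed in the RefSeq promoter table of GRCm38.p6, Mvd, Idi1, Lss and Cyp51. Each line gives the 250 bases before the start site that table lists (for Lss, inside the gene's first bases), on the gene's strand, with matches to CCAAT (the motif of NF-Y) and GGGCGG (that of Sp1), or their reverse complements, in capitals; both factors are known partners of SREBP at sterol genes. Mvd lies at chr8:122443423-122443672 on the minus strand, Idi1 at chr13:8885356-8885605 on the plus strand, Lss at chr10:76531355-76531604 on the plus strand and Cyp51 at chr5:4104698-4104947 on the minus strand.
Mvd: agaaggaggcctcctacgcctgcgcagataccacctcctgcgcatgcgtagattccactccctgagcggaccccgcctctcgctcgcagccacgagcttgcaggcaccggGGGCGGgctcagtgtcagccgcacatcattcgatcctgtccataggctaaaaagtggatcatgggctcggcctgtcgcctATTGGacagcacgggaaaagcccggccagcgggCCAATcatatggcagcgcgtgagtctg
Idi1: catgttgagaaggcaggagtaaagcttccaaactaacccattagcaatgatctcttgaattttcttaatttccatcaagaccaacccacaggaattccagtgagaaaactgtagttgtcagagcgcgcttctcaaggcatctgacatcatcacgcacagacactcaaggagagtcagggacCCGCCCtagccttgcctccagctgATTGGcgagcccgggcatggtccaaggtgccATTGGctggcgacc
Lss: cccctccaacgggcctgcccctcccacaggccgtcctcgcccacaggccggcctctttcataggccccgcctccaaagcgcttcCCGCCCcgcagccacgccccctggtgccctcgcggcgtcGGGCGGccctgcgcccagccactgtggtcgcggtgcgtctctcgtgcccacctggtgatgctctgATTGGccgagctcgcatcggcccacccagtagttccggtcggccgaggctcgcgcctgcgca
Cyp51: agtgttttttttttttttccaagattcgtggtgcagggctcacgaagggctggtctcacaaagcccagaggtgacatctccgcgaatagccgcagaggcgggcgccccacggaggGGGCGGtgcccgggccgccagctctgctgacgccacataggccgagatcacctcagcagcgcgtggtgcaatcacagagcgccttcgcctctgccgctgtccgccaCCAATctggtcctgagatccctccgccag

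In the windows of 300 bases (250 before to 50 after the start), each of these 4 promoters held CCAAT and GGGCGG, on either strand and with no overlap between the motifs. CCAAT was found in 37.4% of all 32841 promoters of that length, GGGCGG in 35.7% and the pair in 12.8%. The nearest CCAAT match began 27 bases before the start in Mvd, 14 in Idi1, 62 in Lss and 29 in Cyp51. Mvd and Idi1 had 2 matches each and Lss and Cyp51 1 each. The sterol element in the form TCACNCCAC, which 1.24% of all promoters held, was not in these 4 windows. Of the 5 member genes with a listed promoter, 1 held it, Hmgcs1, whose expression was not analysed here. A match describes letters only.

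The remaining enzymes of the pathway were taken from a list of 14, of which 12 were found and 10 tested. Of these 10, 9 were higher in cB and 1, Lbr, was higher in DC, where 61.4% of all tested genes passed in either direction and 29.8% were higher in cB. Of the 10, 2 (Dhcr7 among them) were tested only through their cB arrays, since no DC array detected them, so their direction was set by the filter. Among the 8 enzymes detected on all arrays, 7 were higher in cB and 1 in DC, against 66.6% of such genes called and 32.1% higher in cB. The median log2 difference was 1.60 over the 10 tested and 1.51 over the 12 found, where that of all tested genes was -0.03. This list and the lists that follow were chosen with earlier results of these data known, so their counts are given as a description.

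Acat2, the thiolase at the head of the chain, differed most of these other enzymes among those detected in both groups, at 2.58 ± 0.16 (limma adjusted p = 6.9e-07). Its intensity was 752 to 1327 on cB arrays and 238 to 291 on DC arrays. Pmvk, the kinase just before Mvd, differed by 1.44 ± 0.12 (limma adjusted p = 4.0e-06), with 461 to 639 against 259 to 316. Both genes act before Mvd, and in the authors' deposited table their differences were 1.76 and 0.91.

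After Cyp51 the chain removes the methyl groups at carbon 4 of the sterol and moves and reduces its double bonds. Msmo1, the methyl oxidase, was higher in cB by 1.49 ± 0.12. So were Nsdhl, the decarboxylating dehydrogenase, by 1.52 ± 0.12 and Hsd17b7, the ketoreductase, by 1.79 ± 0.11. Erg28, known from yeast as the scaffold that holds these enzymes together, was higher in cB by 1.68 ± 0.13. It gave 3390 to 6268 intensity units on cB arrays and 1263 to 1818 on DC arrays. Ebp, the double-bond isomerase, differed least of the genes higher in cB, by 1.11 ± 0.13. Limma's adjusted p for these 5 genes was at most 5.3e-05. Their differences lay below those of Fdps, Cyp51 and Sqle, and in the authors' deposited table they were 1.20, 0.57, 1.33, 1.59 and 0.88. On DC arrays Nsdhl gave 179 to 191 intensity units, near the detection edge. With the background estimated from all genes the difference of Nsdhl was 0.19, so its size rests on the correction. Dhcr7, which reduces a double bond of the sterol ring, had intensities of 231 to 312 on cB arrays and at most 173 on DC arrays. Under this background correction that is at least 2.59-fold, but the log2 difference in the authors' deposited table was 0.77, so the size rests on the correction.

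Lbr, a nuclear envelope protein that binds lamin and also reduces the sterol ring at the step after Cyp51, was bright in both groups, with 3501 to 5268 intensity units on cB arrays and 3768 to 5207 on DC arrays. Its log2 difference was -0.34 ± 0.10 (limma adjusted p = 0.016), and -0.19 (adjusted p = 0.38) when array medians were aligned in place of quantile normalization. Tm7sf2, the other reductase of that step, was detected on no array. Sc5d, the desaturase before Dhcr7, was detected on 2 cB arrays and 1 DC array and was not tested; its log2 difference was 0.22 ± 0.23.

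**Figure D3:**
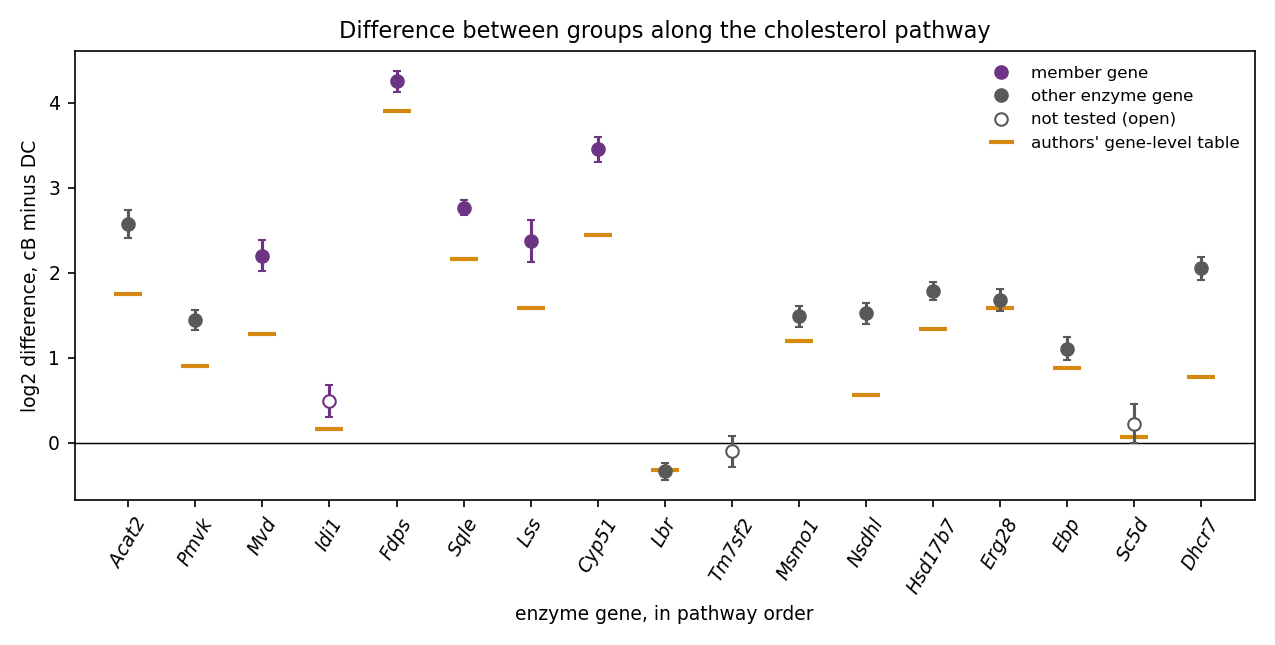
Log2 difference, cB minus DC, of 17 cholesterol synthesis genes in pathway order (filled points tested, open points not tested, bars the SE), with the value in the authors' deposited table as a dash. Fdps at 4.25 and Cyp51 at 3.46 stand above the later enzymes, Idi1 between Mvd and Fdps is an open point at the edge of detection, and Lbr at -0.34 is the tested gene below 0.

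Farnesyl diphosphate also leaves the sterol route. Enzymes that make or use isoprenoids outside sterol synthesis, or that process prenylated proteins, formed a list of their own. Of 15 listed isoprenoid branch genes, 14 were found and 11 tested, and 5 were higher in cB and 3 in DC, where 61.4% of all tested genes passed, 29.8% higher in cB and 31.6% in DC. The median difference was 0.40 over the 11 tested and 0.08 over the 14 found. Pdss1, which builds the ubiquinone side chain, was higher in cB by 1.62 ± 0.18 (limma adjusted p = 3.2e-05), and by 0.91 in the authors' deposited table. Nus1 and Dhdds, the partner subunits that make dolichol's chain, were higher in cB by 0.97 ± 0.09 and 0.62 ± 0.15 (limma adjusted p = 1.1e-05 and 0.0044). Dhdds was detected on 3 cB arrays and 1 DC array. Icmt, which methylates prenylated proteins, and Fntb, a farnesyltransferase subunit, were higher in cB by 0.59 ± 0.11 and 0.40 ± 0.10 (limma adjusted p = 0.0011 and 0.0064). Rce1 and Zmpste24, proteases that trim prenylated proteins, and Rabggtb, a subunit of the transferase for RAB proteins, were higher in DC at -0.40 ± 0.11, -0.31 ± 0.10 and -0.28 ± 0.10 (limma adjusted p = 0.011, 0.019 and 0.030). None of these 3 passed when array medians were aligned, at differences of -0.36, -0.31 and -0.14 (limma adjusted p = 0.099, 0.13 and 0.47). Against Fdps at 4.25, the largest of the branch genes was Pdss1 at 1.62; Ggps1, which lengthens farnesyl to geranylgeranyl diphosphate, was detected on 1 array and was not tested. Trit1, which modifies transfer RNA, had intensities of 336 to 572 and yet counted as detected on 1 array, so detection p did not follow brightness for every gene.

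Genes that control sterol supply formed another list. Of 20 listed, 19 were found and 12 tested, 5 higher in cB and 4 in DC, against the same 61.4%, 29.8% and 31.6% of all tested genes. The median difference was 0.21 over the 12 tested and 0.00099 over the 19 found. Srebf2 was higher in cB by 0.83 ± 0.12 (limma adjusted p = 2.4e-04). It gave 988 to 1753 intensity units on cB arrays and 702 to 941 on DC arrays. Insig1 is an SREBP target whose protein holds SREBP back in the endoplasmic reticulum. It was higher in cB by 1.78 ± 0.15 (limma adjusted p = 4.3e-06) and was detected on 1 DC array. Its difference was 0.65 in the authors' deposited table and 0.21 with the background estimated from all genes. Stard4, a cytosolic sterol carrier, gave 759, 836, 1438 and 351 on the cB arrays and 316, 282, 329 and 307 on the DC arrays. Its cB replicate 4 lay near the DC arrays, and its normalized levels overlapped between the groups at a difference of 1.67 ± 0.46 (limma adjusted p = 0.010). On the DC side were Insig2 (-0.93 ± 0.12), the SREBP escort gene Scap (-0.59 ± 0.14), the SREBP protease gene Mbtps1 (-0.44 ± 0.09) and Nr1h2, an oxysterol receptor gene (-0.83 ± 0.13), with limma adjusted p of at most 0.0043. Insig2 counted as detected on 3 cB arrays and 2 DC arrays, at intensities of 293 to 492 in cB and 514 to 737 in DC. Mbtps1 did not pass with array medians aligned (limma adjusted p = 0.090).

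**Figure D4:**
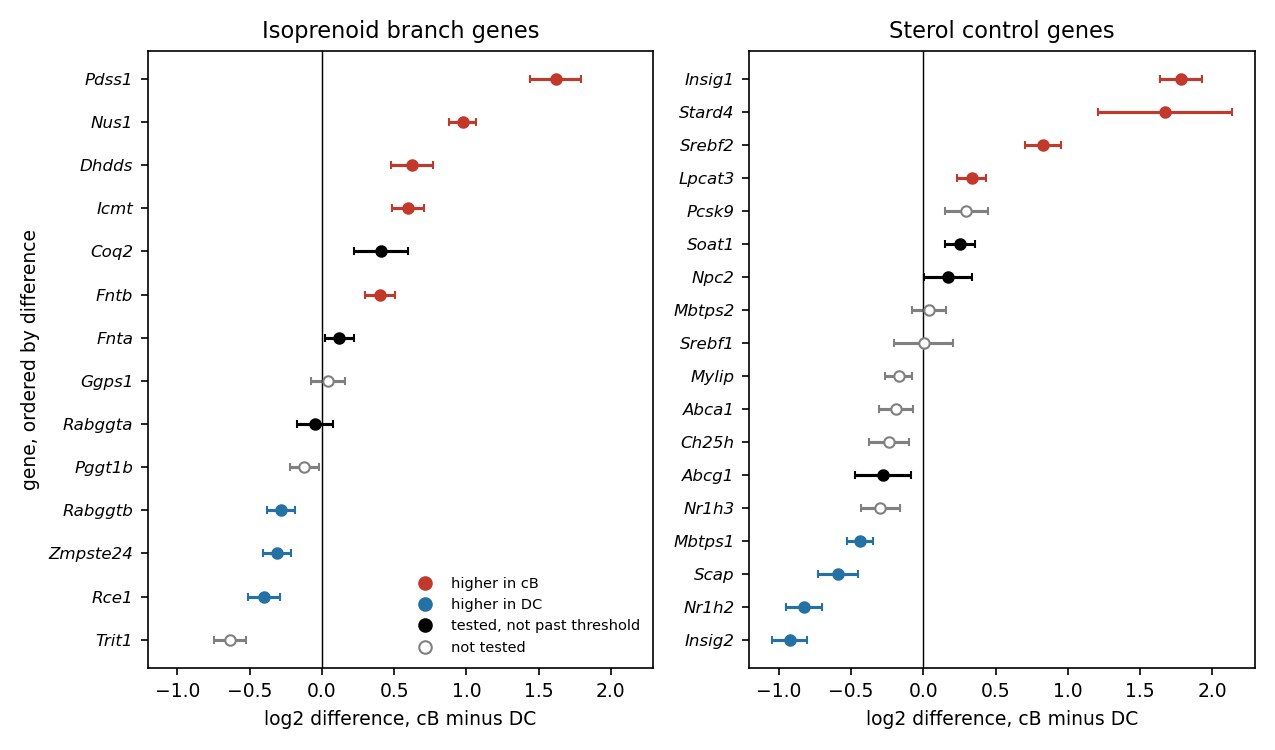
Log2 difference, cB minus DC, with its SE, of 14 isoprenoid branch genes (left) and 18 sterol control genes (right), each ordered by size; colours show the side of the genes past the threshold and open points were not tested. The branch genes run from Pdss1 at 1.62 down to Trit1 at -0.63 (not tested), and the control genes from Insig1 at 1.78 to Insig2 at -0.93.

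The likeness of other genes to the enzymes was measured as the root mean square distance, over the 8 arrays, between a gene's log2 levels less its own mean and the mean of the 6 enzymes treated alike. The nearest genes outside the lists were ORC6L at 0.11, 4930572J05RIK at 0.11, Gmds at 0.12, Isyna1 at 0.13 and Arhgdig at 0.13. The enzymes themselves lay farther from their own mean, from Sqle at 0.16, Mvd at 0.30, Lss at 0.37 and Cyp51 at 0.47 to Fdps at 0.84 and Idi1 at 1.07. The log2 differences of those 5 genes, 2.55 to 2.80, lay around the 2.57 that was the median of the 6 enzymes, and nothing is read from the likeness about shared control.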

How the data were processed

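RNA of 8 samples was measured on Illumina beadchips, and titles gave the group and replicate of every array. Whether replicates were separate cultures or animals is not stated, so a p-value reflects how far these samples scatter, which could be technical scatter. The authors deposited the average bead signal, an intensity, per gene name and array with a detection p-value, per the file headers. Log2 values for 7266 genes were deposited too. How the authors made these is not stated, but the 7258 names found in the other table matched quantile-normalized log2 intensities without background correction to within 0.0005. The probe-level tables carry no gene names and were not used.

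Intensities were processed with limma 3.58.1 in R 4.3.3: normexp correction with an offset of 16, quantile normalization, and lmFit with eBayes on genes detected (p under 0.05) on 4 or more arrays, with Benjamini-Hochberg adjustment over all genes tested. The background was estimated from the 13929 genes whose detection p were whole multiples of 1 part in 798 (to within 0.001 of that part). Its SD was 15.1 to 25.4 intensity units. A gene undetected throughout a group is given as "at least" a fold, which sets the mean of the brighter group against a floor: on each dim array, the gene's own level or the lowest detected level among those 13929 genes, whichever is higher. Each gene name has 1 row, so its probes were not compared, and the number of arrays limits the precision.

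Lists held 98 entries, of which 86 were found by symbol, 3 by a synonym in the RefSeq gene table (Msmo1, Erg28 and Fcmr) and 9 not; members and lists were chosen with earlier results of these data known. Named were the 6 enzymes, the other pathway enzymes found, up to 8 branch and 8 control genes by lowest p with Srebf2 and Insig1, and the 5 genes nearest in profile. Some genes of these lists enter the counts but are not reported here. Markers, Ggps1 and Trit1 are named as examples, chosen after their values were seen. Scripts were tested on simulated data. The alternatives tried were other background corrections, offset, normalization and detection filters, the authors' table, a replicate block and leaving out each array.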

Additional observations from a re-analysis of the deposited data

Results flagged for a closer look

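In the 68 groups of 4 arrays examined, 1 array stood far from the other 3 in 3 groups, by a gap to the nearest array that exceeded Dixon's critical value as a share of the group's range; chance flags about 1 group in 20. For Msmo1 the gap was 0.838: cB replicate 4 had a normalized log2 level of 9.69 where the other cB arrays had 10.05 to 10.12, still above every DC array. For Rabggtb it was 0.927, with DC replicate 2 at 13.49 and the other DC arrays at 13.24 to 13.26; without that array Rabggtb's difference was -0.22 and did not pass (limma adjusted p = 0.087). For Insig2 it was 0.946, with DC replicate 3 at 8.98 and the others at 8.76 to 8.77.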

How the results depend on the processing

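Of 18 alternatives, 13 to 18 could be computed for each of the 6 enzymes and each named gene past the threshold in the other enzyme, branch and control lists, and none of these differences changed sign. The median log2 difference of the 6 measured enzymes, 2.57, was 1.90 when all genes set the background, 1.88 uncorrected, 1.88 in the table of the authors and 2.35 with an offset of 50, and ran from 2.54 to 2.66 with any 1 array left out. The folds of Mvd, Lss and Cyp51 were more than 1.5 times smaller without background correction (2.42, 3.01 and 5.43 in place of 4.59, 5.17 and 10.97), as were those of Sqle (4.49 in place of 6.81), Acat2 (3.38 in place of 5.96), Nsdhl (1.48 in place of 2.87) and Dhcr7 (1.71 in place of 4.16), while that of Fdps was 15.04 in place of 19.1. The count of isoprenoid branch genes called went from 8 to 5, all higher in cB, when array medians were aligned. Dhdds did not pass with the background from all genes (adjusted p = 0.089), and Rabggtb did not pass without cB replicate 1, 2 or 3, without DC replicate 2, with no detection filter or with the replicate block (adjusted p = 0.056 to 0.087). The cause was not tested. Counts over all genes ran from 3504 with detection required on all 8 arrays to 4738 in the authors' table, and from 3980 to 4181 with an array left out. With any cB array left out, 2 enzymes (Dhcr7 among them) no longer reached detection on 4 arrays, and 7 enzymes were higher in cB and 1 in DC of 8 tested. A detection filter by signal, chosen after seeing the data, gave 4675 calls and the same counts of 9 and 1 for the other enzymes.

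With the replicate block 4431 genes passed, and the calls were 10 for the other enzymes, 8 for the branch genes (6 higher in cB and 2 in DC, where the fit without it had 5 and 3) and 9 for the control genes. Same-numbered samples correlated at 0.11, 0.13, 0.18 and 0.08 in their deviations from the group means over tested genes; 3 of 4 pairs exceeded 0.1, and all 8 samples correlated best with their own number, a hint of pairing from the data. The labels tie the numbers to no shared animal, batch or day, though the sample codes of each DC and cB sample of the same number are consecutive. The fit without the block was kept because the labels state no pairing and 1 pair fell below 0.1. That cut does not exclude pairing. The authors' probe-level values could not be tried, as no table used here names their genes. Dim genes such as Idi1 and Dhcr7 lie near the detection edge, where signal over background limits the sizes.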
